A study of Mus musculus with 170 samples.

Results

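RNA from the skin fibroblast sort of young mice was compared with RNA from young keratinocytes, gene by gene. The members are the 3 young libraries labelled skin fibroblasts and the 4 young libraries labelled keratinocytes, 7 of the 170 libraries of the series, and all differences are given as sort minus keratinocytes. Of the 55484 entries in the count table, 12203 passed the count filter in these libraries and were tested. The series profiled 23 cell types of mice of 2 ages, 2 months (young) and 22 to 24 months (old). RNA was sequenced from cells purified by fluorescence-activated sorting, with libraries that read the 3' ends of polyadenylated RNA. Both groups came from skin of 2-month-old animals with a C57/Bl6 background genotype and no further treatment in the labels. Each library held cells pooled from 5 animals, and the labels do not name the surface markers used for sorting. The libraries of 1 group are separate pools, so a p-value here measures the spread between pools.

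Keratinocytes build the epidermis: basal cells divide next to the dermis and make the keratins Krt5 and Krt14, their daughters move up and switch to Krt1, Krt2 and Krt10, and the uppermost cells assemble a cornified envelope from involucrin, loricrin, small proline-rich proteins and late cornified envelope proteins. Dermal fibroblasts secrete the collagens, proteoglycans and elastic fibres under that layer, and carry receptors such as the PDGF receptors. Both cell types respond quickly to stress and growth factors through immediate early factors, among them the Fos and Jun proteins, which bind DNA as the AP-1 complex, and factors that bind the cAMP response element (CRE).

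Promoter sequences are shown for 6 genes that were higher in the sort and hold a searched motif, 4 of them an AP-1 motif (TGANTCA) and 2 a CRE (TGACGTCA). The promoters of Fos, Jun and Atf3, also higher in the sort, hold neither. Each run is the 250 bases before the RefSeq start site on GRCm38.p6, written 5' to 3' along the gene's strand, with the motif in capitals. Both motifs read the same on either strand and do not overlap each other in these windows. Sprr1a and Sprr1b encode small proline-rich proteins of the cornified envelope, and their promoters lie on chromosome 3 at chr3:92485882-92486131 (minus strand) and chr3:92438780-92439029 (minus strand). Mmp10 and Mmp3 encode stromelysins, secreted proteases that cut matrix proteins, with promoters at chr9:7502092-7502341 (plus strand) and chr9:7445572-7445821 (plus strand). Btg2, an antiproliferative immediate early gene, and Dusp1, a phosphatase gene that shuts off MAP kinases, have theirs at chr1:134079156-134079405 (minus strand) and chr17:26508473-26508722 (minus strand).
Sprr1a: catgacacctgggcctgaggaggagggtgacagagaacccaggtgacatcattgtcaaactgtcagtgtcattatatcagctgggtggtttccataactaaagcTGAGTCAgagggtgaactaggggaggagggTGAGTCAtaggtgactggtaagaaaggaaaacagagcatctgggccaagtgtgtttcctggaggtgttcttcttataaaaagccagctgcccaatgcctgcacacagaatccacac
Sprr1b: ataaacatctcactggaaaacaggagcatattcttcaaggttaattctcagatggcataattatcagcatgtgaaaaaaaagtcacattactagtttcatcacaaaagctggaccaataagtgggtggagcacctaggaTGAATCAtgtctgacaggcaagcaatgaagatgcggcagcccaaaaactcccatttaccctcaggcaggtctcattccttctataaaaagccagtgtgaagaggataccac
Mmp10: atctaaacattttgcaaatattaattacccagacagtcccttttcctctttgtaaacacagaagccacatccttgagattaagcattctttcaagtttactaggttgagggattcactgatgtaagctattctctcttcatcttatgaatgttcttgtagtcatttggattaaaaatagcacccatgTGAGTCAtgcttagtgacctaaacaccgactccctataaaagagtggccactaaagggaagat
Mmp3: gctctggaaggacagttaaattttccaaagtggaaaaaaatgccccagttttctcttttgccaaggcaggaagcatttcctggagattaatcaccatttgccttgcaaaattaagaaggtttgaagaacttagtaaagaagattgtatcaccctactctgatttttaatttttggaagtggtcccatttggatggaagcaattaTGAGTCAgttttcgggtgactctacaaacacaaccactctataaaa
Btg2: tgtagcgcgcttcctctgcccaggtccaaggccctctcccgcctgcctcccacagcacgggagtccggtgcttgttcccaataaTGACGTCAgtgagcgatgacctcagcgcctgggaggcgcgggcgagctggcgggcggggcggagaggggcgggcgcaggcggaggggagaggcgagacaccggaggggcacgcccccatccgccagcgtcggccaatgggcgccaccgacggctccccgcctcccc
Dusp1: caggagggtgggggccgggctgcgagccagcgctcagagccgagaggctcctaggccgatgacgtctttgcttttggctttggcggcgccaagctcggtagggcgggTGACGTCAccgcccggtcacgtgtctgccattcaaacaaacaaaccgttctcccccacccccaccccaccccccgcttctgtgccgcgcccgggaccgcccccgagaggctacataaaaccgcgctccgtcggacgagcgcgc

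The motif began 146 and 116 bases before the start site in Sprr1a, 111 in Sprr1b, 63 in Mmp10, 46 in Mmp3, 166 in Btg2 and 143 in Dusp1. RefSeq promoters matched 8696 of the 12203 tested genes. The AP-1 motif occurred in 6.75% of all 32851 promoters of that length, in 4.63% of those of tested genes, in 6.88% of those of genes higher in the sort and in 3.20% of those of genes lower in it. It stood in 3 of 14 promoters of tested late cornified envelope and small proline-rich genes, in 4 of 16 of matrix protease and inhibitor genes (Mmp10, Mmp13, Mmp3 and Plaur) and in 0 of 33 of immediate early genes. The CRE occurred in 1.55% of all promoters, 2.73% of those of tested genes, 3.54% and 2.26% of those of genes higher and lower, and in 2 of 33 of immediate early genes. These matches describe letters in a window and were not tested as binding sites.

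Total counts were 2664346 to 5714776 in the 3 sort libraries and 1917368 to 2843899 in the 4 keratinocyte libraries. Spearman correlations across tested genes, which are not independent replicates, were 0.951 to 0.963 among sort libraries, 0.957 to 0.967 among keratinocyte libraries and 0.774 to 0.833 between them. Malat1, a nuclear long non-coding RNA, took 0.319% to 0.494% of counts in the sort and 1.37% to 1.73% in keratinocytes.

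The label was checked first against the keratinocyte marker Krt14 and the fibroblast marker Col1a1. Krt14, the basal keratin (chr 11, 100203162 to 100207548), had 9249, 10680 and 6077 CPM (counts per 1000000 counts of a library, after TMM scaling) in the sort and 5891, 6120, 6269 and 5842 CPM in keratinocytes. The groups overlapped, the difference was log2 0.52 ± 0.22 (SE), and it did not pass (edgeR's quasi-likelihood test, adjusted p = 0.0523). On unscaled library totals the sort ranked 1 of the 23 young cell types in mean Krt14 level, with 7330 ± 2410 CPM (SD, n = 3), and keratinocytes ranked 2, with 6730 ± 170.0 CPM (SD, n = 4). Col1a1, the alpha-1 chain of type I collagen (chr 11, 94936224 to 94953042), had 796, 813 and 1383 CPM in the sort and 122, 126, 169 and 164 CPM in keratinocytes. Every sort library was above every keratinocyte library (log2 2.78 ± 0.22, adjusted p = 8.28e-08), and on library totals the sort ranked 6 and keratinocytes 7 of the 23 cell types.

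Across all markers the sort held both programmes. The summed level of the 20 fibroblast identity genes, in CPM of library totals, was 5130 to 6040 in the sort, 1220 to 1400 in keratinocytes, 77900 to 97900 in young muscle fibroblasts, 86500 to 152000 in lymph node fibroblasts and 55600 to 74100 in thymic fibroblasts. The 15 basal keratinocyte genes summed to 23700 to 32300 in the sort, 29800 to 34500 in keratinocytes, 1920 to 2370 in muscle fibroblasts with Krt5 and Krt15 at 0, 3070 to 4060 in lymph node fibroblasts and 654 to 1450 in thymic fibroblasts. The 27 suprabasal genes summed to 24500 to 32600 in the sort and 14300 to 18800 in keratinocytes. These values go against a label of fibroblasts alone, so the group is called the sort or the libraries labelled skin fibroblasts. In bulk RNA, fewer cells of a type and less RNA per cell cannot be told apart.

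**Figure D1:**
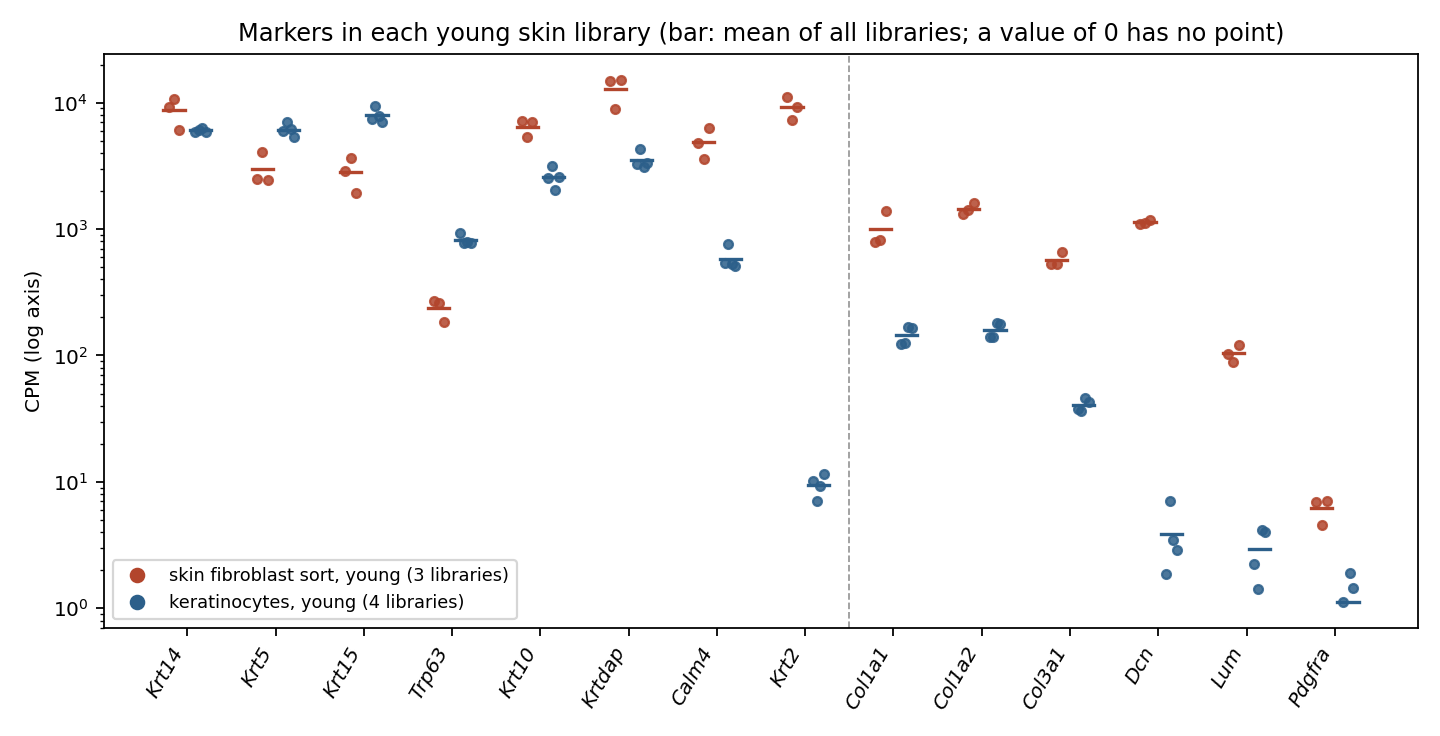
Level of 8 keratinocyte genes (left of the dashed line) and 6 fibroblast genes (right) in each young skin library, in CPM on a log axis, with 1 point per library and a bar at the mean of each group (3 sort libraries, 4 keratinocyte libraries); a value of 0 has no point. Krt14 overlaps between the groups, Krt5, Krt15 and Trp63 are lower in every sort library, and Krt2, Dcn and Lum stand more than 10-fold higher.

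Of the 12203 genes tested, 6509 (53.3%) differed at an adjusted p under 0.05, 3212 higher (26.3%) and 3297 lower (27.0%) in the sort, and 1776 and 2267 of them by more than 2-fold. Tested against a 2-fold threshold itself, 954 genes were higher (7.82%) and 1102 lower (9.03%). The 3 and 4 libraries did not overlap for 3210 genes higher (26.3%) and 3355 lower (27.5%). In the sort, 15 of 15 tested late cornified envelope and small proline-rich genes, 19 of 19 fibroblast identity genes and 31 of 34 immediate early genes were higher, while 14 of 16 Hox genes, 9 of 15 basal keratinocyte genes and 21 of 41 Wnt genes were lower. Against the shares over all genes a list with 1 member in 4 called in each direction is at the background. With library sizes unscaled the median of all genes shifted by -0.43 on the log2 scale and 1809 genes were higher and 5158 lower, 26.0% higher against 49.3%, so directions below are relative to TMM scaling and small differences are sensitive to it. A list member that passed the count filter only through the group where it is high had to differ, so the counts below describe the lists and carry no test of them.

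**Figure D2:**
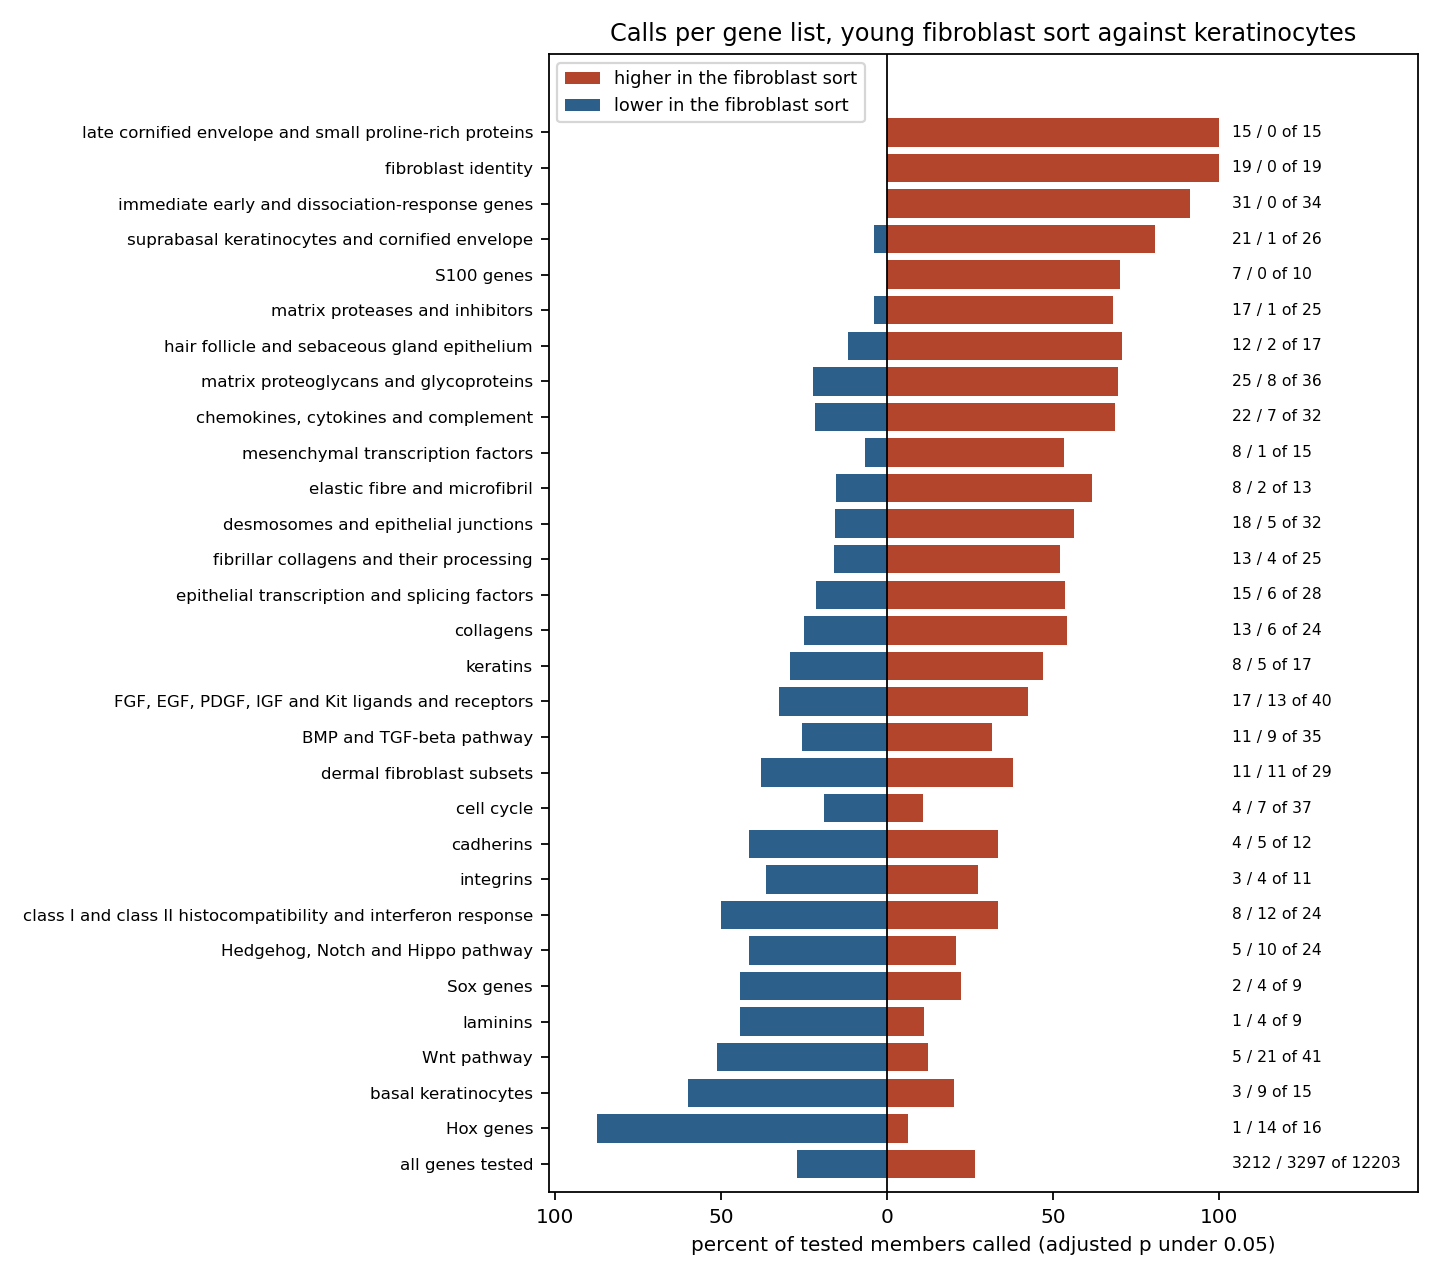
Share of tested members called higher (right) and lower (left) in the sort for each gene list with at least 9 tested members, in percent, with counts higher / lower of tested at the right. Cornified envelope, fibroblast identity and immediate early lists lie almost wholly to the right, Hox, basal keratinocyte and Wnt lists mostly to the left, and all 12203 genes at the bottom split evenly.

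Basal keratinocyte genes were mostly lower in the sort: of 15 tested members 9 fell and 3 rose, with a median log2 difference of -0.80 against -0.02 for all genes. Trp63, the p63 transcription factor gene that maintains the basal layer, had 269.8, 260.1 and 183 CPM in the sort and 938, 776, 796 and 778 CPM in keratinocytes. All sort libraries lay below all keratinocyte libraries (log2 -1.79 ± 0.19, adjusted p = 1.64e-06). Krt15, a keratin of basal and hair follicle stem cells, had 2866, 3650 and 1935 against 7420, 9420, 7787 and 7084 CPM, again without overlap (log2 -1.49 ± 0.24, adjusted p = 9.41e-05). Krt5, the partner of keratin 14, had 2508, 4039 and 2439 against 5933, 6983, 6212 and 5370 CPM (log2 -1.03 ± 0.22, adjusted p = 0.00121). Of the keratin pair of the basal cell, Krt5 was called and Krt14 was not. Genes of the anchoring complex that holds basal cells to the basement membrane fell too: the integrin genes Itga6 (log2 -1.48 ± 0.18) and Itgb4 (-1.03 ± 0.16), the hemidesmosomal collagen Col17a1 (-0.80 ± 0.19) and the laminin chains Lamb3 (-1.18 ± 0.21) and Lama3 (-0.58 ± 0.19, called in the full comparison and not without sort replicate 3). Risen members included Sfn, the 14-3-3 sigma gene (9499, 8918 and 10640 against 1039, 1012, 936 and 996 CPM), and Perp, a desmosomal p53 and p63 target (5890, 5554 and 6796 against 2350, 2712, 2638 and 2642 CPM). For Sfn and Perp every sort library was above every keratinocyte library.

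The basement membrane collagen Col7a1, which forms anchoring fibrils, had 18.2, 25.3 and 21.5 CPM in the sort and 209, 154, 149.8 and 150.0 CPM in keratinocytes. It fell by 2.95 on the log2 scale without overlap (adjusted p = 1.95e-08). Of 9 tested laminin genes 4 fell, and Lama1 was close to absent from the sort (0.652, 0 and 1.56 against 15.7, 20.8, 13.99 and 17.1 CPM, log2 -4.44 ± 0.49, and -5.16 without sort replicate 3). Of 11 tested integrin genes 4 fell and 3 rose, near the shares over all genes (27.0% lower and 26.3% higher). Among the risen was Itgb6, an epithelial integrin that activates TGF-beta (101, 60.9 and 61.4 against 13.8, 6.62, 9.54 and 10.2 CPM, log2 2.88 ± 0.25).

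Suprabasal and cornified envelope genes went the other way. Of 26 tested members (27 listed) 21 rose and 1 fell, with a median of 2.32. Outside that list, Krt2, a keratin of the upper spinous layer (chr 15, 101810689 to 101818169), had 11140, 7297 and 9268 CPM in the sort and 10.1, 7.098, 9.22 and 11.7 CPM in keratinocytes. No library of either group came near the other, and this was the lowest adjusted p among the 265 genes considered for naming (log2 9.91 ± 0.29, adjusted p = 7.42e-12). Krt10, the keratin of the first suprabasal cells, had 7136, 5304 and 6970 against 2531, 3157, 2044 and 2574 CPM (log2 1.33 ± 0.20, adjusted p = 6.81e-05). Krtdap, a keratinocyte differentiation protein gene, had 14810, 8865 and 15030 against 3276, 4311, 3074 and 3346 CPM (log2 1.88 ± 0.23), and Calm4, a calcium-binding protein gene of differentiating skin, 4773, 3591 and 6332 against 539.8, 756, 532 and 509.5 CPM (log2 3.07 ± 0.23). Krt10, Krtdap and Calm4 did not overlap between the groups.

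The list did not move as a block. Krt1, the partner of keratin 10, had 66.9, 240.2 and 249 CPM in the sort and 312, 333, 211 and 222 CPM in keratinocytes, with overlap and no call (log2 -0.55 ± 0.33, adjusted p = 0.177). Krt77, a keratin related to keratin 1, was the single fallen member, with 34.1, 260.5 and 174 against 2051, 1914, 1283 and 1754 CPM (log2 -3.50 ± 0.47, adjusted p = 2.17e-05). Lgals7, the galectin-7 gene of stratified epithelia, was not called either (log2 0.25 ± 0.20). Dmkn, for dermokine, rose by 0.96 ± 0.19 without overlap. Of the envelope proteins themselves, Ivl (involucrin) had 341, 144 and 268 against 9.71, 13.2, 15.6 and 13.8 CPM (log2 4.25 ± 0.27, adjusted p = 8.50e-09), Lor (loricrin) 28.9, 34.4 and 22.7 against 3.36, 3.31, 12.1 and 3.64 CPM (log2 2.29 ± 0.38, and 3.00 without keratinocyte replicate 3) and Flg (filaggrin) 18.9, 31.5 and 23.9 against 1.49, 2.37, 5.41 and 3.28 CPM (log2 2.91 ± 0.35). All 3 were higher in every sort library. Of 53 keratin genes 17 were tested, of which 8 rose and 5 fell, and 0 of 54 keratin-associated protein genes of the hair shaft passed the count filter.

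The late cornified envelope and small proline-rich families, which sit together on chromosome 3, were higher throughout. Of 35 genes 15 were tested and 15 rose, without overlap in all 15, with a median log2 difference of 6.15, or 5.33 with the 5 genes that had 0 counts in keratinocytes set at their lower bound. Sprr1a had 1430, 618 and 2094 CPM in the sort and 10.8, 14.2, 11.4 and 26.9 CPM in keratinocytes (log2 6.44 ± 0.40, adjusted p = 7.81e-09). Sprr1b had 118, 85.3 and 155 against 1.12, 0, 0.318 and 2.55 CPM (log2 6.80 ± 0.41, and 7.74 without keratinocyte replicate 4). Their promoters, printed above, hold 2 and 1 AP-1 motifs. Sprr2h had 34.3, 20.7 and 64.1 CPM in the sort and 0 counts in all 4 keratinocyte libraries, which makes it at least 141-fold higher when 3 counts over the keratinocyte group are taken as the floor (0.281 CPM). Lce1c had 24.8, 15.7 and 28.1 CPM in the sort and 3 counts in all in keratinocytes, a ratio of 83.3 with a 95% exact counting interval of 28.1 to 407, which covers counting error only. Of the other late cornified envelope genes, Lce1a1 rose by 5.33 ± 0.49 and Lce1m by 4.05 ± 0.54 on the log2 scale. These genes are near copies of each other, and the labels do not say how reads shared between copies were counted, so single members are uncertain.

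Junction genes rose more often than they fell, 18 against 5 of 32 tested, with a median of 0.56 that shrank to 0.13 on unscaled library sizes (14 against 9). Of 6 tested claudin genes, which seal tight junctions, 4 rose and 1 fell. Cldn4 had 679, 349.5 and 584 CPM in the sort and 10.8, 11.8, 11.1 and 10.6 CPM in keratinocytes (log2 5.60 ± 0.24, adjusted p = 2.15e-10), and Cldn1 1001, 639.8 and 917 against 205, 307, 317 and 271 CPM (log2 1.63 ± 0.20). Neither overlapped. Jup, plakoglobin, rose by 1.31 ± 0.18, Cdh1, E-cadherin, by 0.70 ± 0.17 and Epcam, an epithelial adhesion molecule gene, by 1.56 ± 0.21. Desmosomal cadherins differed among themselves, with Dsg1a higher (log2 0.56 ± 0.16), Dsg3, which is strongest in basal cells, lower (-0.70 ± 0.17) and Dsc3 not called (0.32 ± 0.16, adjusted p = 0.106). On unscaled library sizes Cdh1 and Dsg1a were not called, so their rises depend on the scaling. Dsp, desmoplakin, had 1890, 1780 and 1302 against 2181, 2165, 2223 and 2193 CPM and was not called although the libraries did not overlap (log2 -0.40 ± 0.18, adjusted p = 0.0747).

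Epithelial transcription and splicing factors rose in 15 and fell in 6 of 28 tested members, with a median of 0.80. The median was 0.37 on unscaled library sizes, with 13 higher and 8 lower, and 0.46 without the count filter, with 15 higher and 7 lower of 30. Ovol1, a zinc finger gene of differentiating epidermis, had 51.3, 64.6 and 53.96 CPM in the sort and 2.99, 0.946, 1.27 and 0 CPM in keratinocytes (log2 5.38 ± 0.39, and 6.12 without keratinocyte replicate 1). It was higher in every sort library. Klf4 and Klf5 were not called (log2 0.07 ± 0.16 and 0.40 ± 0.20), and Gata3 fell by 0.65 on the log2 scale. Hair follicle and sebaceous genes rose in 12 and fell in 2 of 17 tested: Krt16, a keratin of the follicle and of wounded epidermis, had 306, 205 and 330.0 against 9.34, 8.52, 10.5 and 12.8 CPM (log2 4.76 ± 0.22), and the lipid desaturase gene Scd1 365, 384 and 597 against 178, 152, 127 and 147 CPM (log2 1.57 ± 0.19), neither with overlap. Mgst1, of the sebaceous list, rose by 3.95 ± 0.38, or 3.17 without sort replicate 3. The hair follicle and sebaceous list summed to 1400 to 2530 CPM of library totals in the sort and 737 to 914 in keratinocytes. It summed to 3260 to 3630 in muscle, 6390 to 9140 in lymph node and 4320 to 6010 in thymic fibroblasts, so its level is not particular to epithelium here.

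Fibroblast identity genes rose in 19 of 19 tested members (20 listed), with a median of 2.78. Dcn, the small proteoglycan decorin (chr 10, 97479609 to 97518143), had 1104, 1117 and 1179 CPM in the sort and 1.87, 7.098, 3.498 and 2.91 CPM in keratinocytes. Each sort library held more than 100 times the highest keratinocyte level (log2 8.24 ± 0.29, adjusted p = 5.11e-11). Lum, lumican, had 104, 89.5 and 122 against 2.24, 1.42, 4.13 and 4.01 CPM (log2 5.08 ± 0.26), and Dpt, dermatopontin, 87.1, 76.6 and 89.1 against 1.12, 0.946, 1.27 and 0.728 CPM (log2 6.30 ± 0.26), also without overlap. Clec3b, tetranectin, had 10.6, 8.28 and 16.03 CPM in the sort and 0 counts in keratinocytes, at least 41.5-fold higher. The collagen genes Col1a2 and Col3a1, of type I and type III collagen, rose by 3.18 ± 0.18 and 3.81 ± 0.17 on the log2 scale, and Vim, vimentin, by 2.33 ± 0.23.

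The receptor genes by which fibroblasts are often told were low in both groups. Pdgfra, the PDGF receptor alpha, had 6.95, 4.55 and 7.04 CPM in the sort and 1.12, 0, 1.91 and 1.46 CPM in keratinocytes (log2 2.34 ± 0.53, adjusted p = 0.00168), and Pdgfrb 9.34, 13.7 and 17.2 against 1.49, 2.37, 2.23 and 0 CPM (log2 3.10 ± 0.52). The libraries did not overlap for either. Thy1, a surface protein used to sort fibroblasts, had 60.6, 119.7 and 73.9 against 36.6, 34.5, 21.6 and 51.4 CPM (log2 1.23 ± 0.27). Set against fibroblasts of other tissues on library totals, the sort's mean was a median of 4.90% of the muscle level over the 20 genes, 4.61% of the lymph node level and 4.68% of the thymic level. It was below the reference in 19, 20 and 19 of 20 genes. Single genes ran from 0.93% to 244% of the muscle level, 3.01% to 37.4% of the lymph node level and 1.13% to 484% of the thymic level. The marker Col1a1 stood at 7.52%, 6.01% and 70.9% of the 3 levels, and S100a4 was the gene above the muscle and thymic levels.

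**Figure D3:**
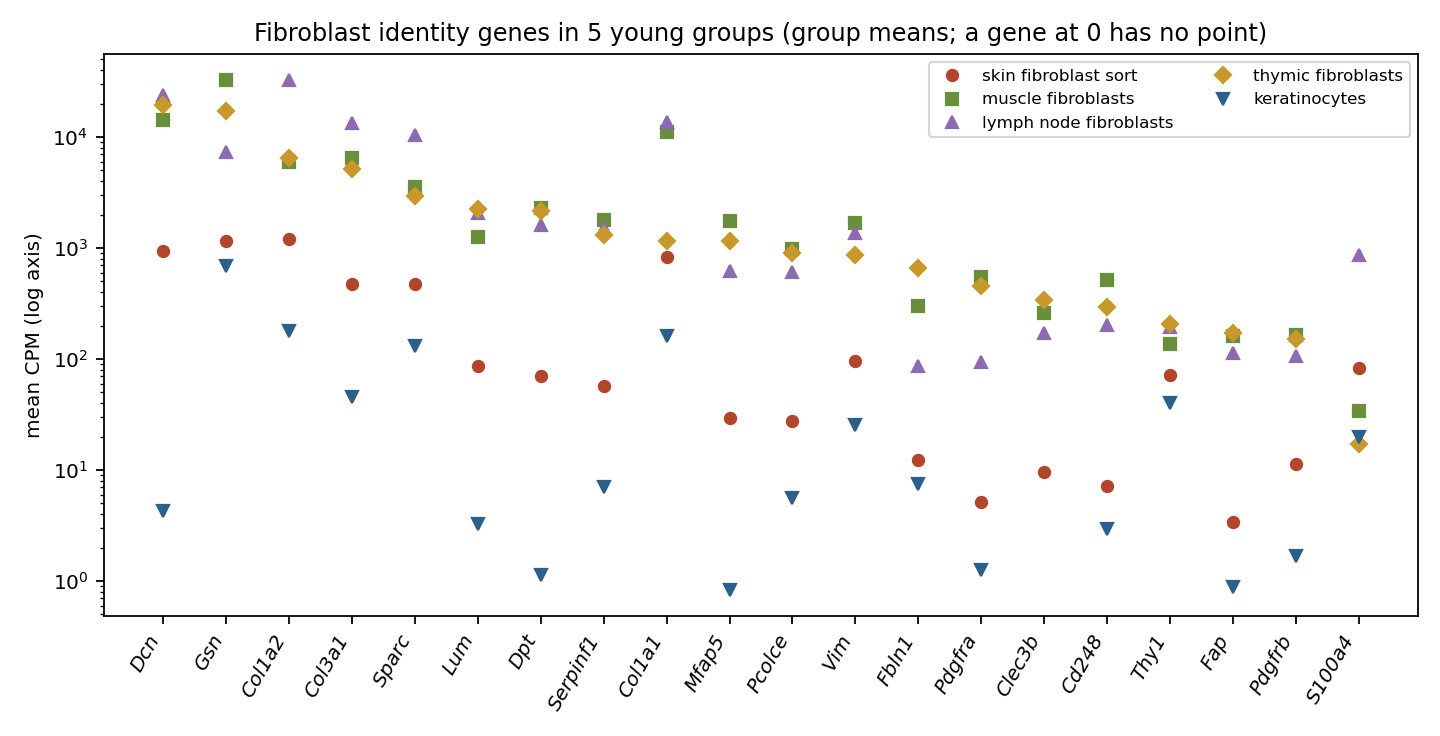
Mean level of the 20 fibroblast identity genes in 5 young groups, in CPM of library totals on a log axis, ordered by the thymic level. The sort (circles) lies above keratinocytes (downward triangles) and, for nearly all genes, below muscle, lymph node and thymic fibroblasts.

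Matrix genes followed the identity list in part. Of 25 tested genes for fibrillar collagens and their processing 13 rose and 4 fell, and 11 rose and 7 fell on unscaled library sizes. Among the processing genes, Serpinh1, the collagen chaperone HSP47, was not called (69.1, 82.4 and 73.1 against 79.6, 67.7, 91.2 and 91.04 CPM, log2 -0.14 ± 0.17), P4ha1, a prolyl hydroxylase subunit, fell by 0.65 on the log2 scale, and P4hb rose by 0.44 ± 0.17 but lost the call in 5 of the 7 comparisons with 1 library left out. Proteoglycan and glycoprotein genes rose in 25 and fell in 8 of 36 tested (50 listed). Thbs1, thrombospondin 1, had 1202, 1130 and 934 CPM in the sort and 57.5, 46.4, 52.8 and 64.5 CPM in keratinocytes (log2 4.30 ± 0.19, adjusted p = 2.19e-10). Sparc, osteonectin, had 398, 534 and 762 against 134, 110.3, 108 and 120.2 CPM (log2 2.26 ± 0.20) and its relative Sparcl1 172, 251 and 422 against 0, 0, 2.86 and 2.91 CPM (log2 7.44 ± 0.49). All 3 were higher in every sort library. Has2, a hyaluronan synthase, had 29.8, 14.9 and 23.1 against 0.747, 0.473, 0.318 and 0.364 CPM (log2 5.48 ± 0.44), and Smoc2 fell by 1.10 on the log2 scale. Elastic fibre genes rose in 8 and fell in 2 of 13 tested, with Eln, elastin, at 20.9, 19.5 and 37.5 against 5.603, 5.21, 6.36 and 9.83 CPM (log2 1.92 ± 0.31) and Mfap5, of microfibrils, at 43.01, 25.7 and 37.9 against 0.747, 0.473, 0.636 and 1.09 CPM (log2 5.50 ± 0.36). Col8a1 of the collagen family rose by 2.91 ± 0.20.

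Matrix proteases and their inhibitors rose in 17 and fell in 1 of 25 tested (39 listed), with a median of 2.47. Mmp3 had 1238, 576 and 616 CPM in the sort and 19.4, 21.3, 17.5 and 16.4 CPM in keratinocytes, with no overlap (log2 5.45 ± 0.27, adjusted p = 9.52e-10). Mmp10 had 130.1, 53.01 and 98.5 CPM in the sort and a single count in the 4 keratinocyte libraries, a ratio of 1090 with a 95% exact counting interval of 196 to 43200. Mmp13, collagenase 3, had 107, 16.1 and 53.96 against 0, 0, 0 and 2.19 CPM (log2 6.64 ± 0.75, 10.43 without keratinocyte replicate 4 and 5.86 without sort replicate 1). The promoters of all 3 hold an AP-1 motif. Mmp2, gelatinase A, a fibroblast enzyme, had 101, 119 and 96.6 against 9.34, 10.4, 12.4 and 11.7 CPM (log2 3.26 ± 0.19). Ctsl, cathepsin L, rose from 317, 329.8, 370.4 and 358 to 2408, 1678 and 1424 CPM (log2 2.42 ± 0.20), Adamts1 by 3.13 ± 0.23 and the urokinase gene Plau by 1.78 ± 0.30. The fallen member was Htra1, a secreted serine protease (76.2, 102 and 66.1 against 130.0, 153, 139.9 and 110.0 CPM), and Ctsb, cathepsin B, was not called (log2 -0.23 ± 0.18).

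Mesenchymal transcription factors were sparse: 15 of 44 were tested, 8 rose and 1 fell, and 7 rose and 5 fell on unscaled library sizes. Ebf1 had 55.4, 50.5 and 69.6 against 19.4, 35.5, 23.9 and 19.3 CPM (log2 1.26 ± 0.22) and Klf2 34.1, 50.5 and 50.8 against 7.84, 3.79, 7.95 and 5.83 CPM (log2 2.78 ± 0.26), both without overlap. Tcf4, Snai2 and Foxp1 were not called (log2 0.20 ± 0.16, -0.28 ± 0.25 and -0.32 ± 0.16). Genes of dermal fibroblast subsets split evenly, 11 higher and 11 lower of 29 tested, with a median of -0.20 that was 0.63 without the count filter (47 tested). Apod, apolipoprotein D, had 91.7, 106 and 156 CPM in the sort and 1 count in keratinocytes, a ratio of 1200 (95% exact counting interval 215 to 47400). Axin2, a Wnt target gene, had 7.82, 17.8 and 13.7 against 146, 145, 132 and 121 CPM and fell by 3.42 on the log2 scale without overlap, and Apoe was high in both groups and not called (log2 -0.19 ± 0.21).

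Hox genes, which record position along the body axis, formed the list with the largest share lower among those with at least 9 tested members. Of 39 genes 16 were tested, 14 fell and 1 rose, with a median log2 difference of -6.91, or -5.12 with the 5 genes at 0 counts in the sort set at their bound (3 counts over the sort, 0.313 CPM). Over the main fit and 14 alternative settings the median ran from -7.293 to -2.975, with 12 to 17 lower and 0 to 2 higher. Hoxa7 (chr 6, 52214491 to 52221854) had 0.217, 0 and 0.391 CPM in the sort, 2 counts in all, and 69.1, 97.5, 101 and 71.4 CPM in keratinocytes, a ratio of 406 with a 95% exact counting interval of 112 to 3360. Hoxa5 had 0.217, 0 and 0 CPM, 1 count, against 60.9, 72.4, 53.4 and 43.7 CPM, a ratio of 542 (95% exact counting interval 96.8 to 21400). Hoxc8, with 1 count in the sort and 26.1, 27.9, 26.4 and 28.8 CPM in keratinocytes, had a ratio of 261 (46.5 to 10300), and Hoxb7, also with 1 count, had a ratio of 192 (34.1 to 7610). Hoxb4 and Hoxb6 had 0 counts in all sort libraries and 21.3, 32.2, 28.3 and 20.03 and 13.1, 8.52, 18.1 and 18.9 CPM in keratinocytes, at least 81.2-fold and 46.8-fold lower in the sort. The genes span the Hoxa, Hoxb and Hoxc clusters, and genes of each were lower in the sort. Hoxc13, a gene of hair and nail epithelium, was the risen member with 5.43, 5.38 and 7.82 against 1.87, 0.473, 2.86 and 2.91 CPM (log2 1.52 ± 0.46, not called on unscaled library sizes), and Hoxb2 was not called (1.303, 2.07 and 6.65 against 7.098, 7.098, 7.63 and 5.46 CPM, log2 -1.11 ± 0.49). Gene models of Hoxa5 and Hoxa3, of Hoxc8 and Hoxc5 and of several antisense RNAs overlap, and no label says whether counting used the strand, so reads of overlapping models cannot be told apart.

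**Figure D4:**
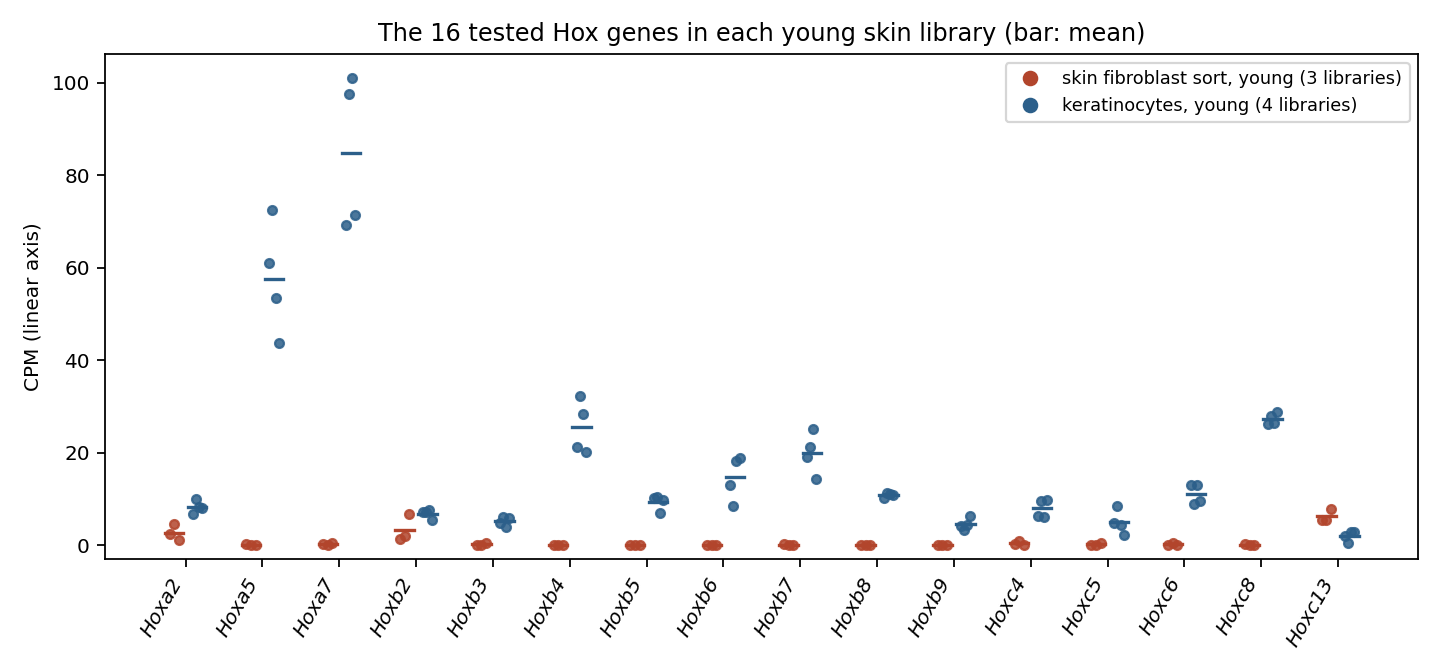
Level of the 16 tested Hox genes in each young skin library, in CPM on a linear axis, with 1 point per library and a bar at the group mean (3 sort libraries, 4 keratinocyte libraries). Sort points lie at or near 0 for all but Hoxa2, Hoxb2 and Hoxc13, while keratinocytes reach 101.1 CPM for Hoxa7 and 72.4 CPM for Hoxa5.

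Wnt pathway genes were lower in the sort in 21 and higher in 5 of 41 tested (60 listed), with a median of -0.65. Over the main fit and 14 alternative settings, the 2-fold threshold among them, 10 to 26 were lower and 2 to 7 higher. The median ran from -1.066 to -0.202. The ligand gene Wnt5a had 6.52, 10.8 and 5.87 CPM in the sort and 127, 71.9, 69.3 and 80.1 CPM in keratinocytes, Wnt16 8.04, 12.8 and 4.69 against 75.1, 81.4, 88.7 and 78.7 CPM and Wnt3 108, 154 and 99.7 against 209.6, 181, 169 and 195 CPM. All 3 fell without overlap, by 3.52, 3.26 and 0.65 on the log2 scale. Rspo3, an R-spondin that amplifies Wnt signals, had 2.39, 12.01 and 2.74 against 74.3, 72.4, 96.98 and 70.7 CPM (log2 -3.90 ± 0.39, and -4.91 without sort replicate 2), and its receptor gene Lgr6 fell by 0.99. Of the receptors, Fzd10 had 38.01, 63.4 and 17.99 against 297, 272, 277 and 342 CPM (log2 -2.90 ± 0.30, adjusted p = 1.53e-06). Among secreted inhibitors the directions were opposed: Sostdc1 had 29.8, 65.8 and 78.2 against 291, 311, 521 and 318 CPM (log2 -2.66 ± 0.30), whereas Wif1 had 40.4, 54.7 and 66.5 CPM in the sort and 2 counts in keratinocytes, a ratio of 272 (95% exact counting interval 74.9 to 2250). Neither gene's groups overlapped.

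BMP and TGF-beta genes were split, 11 higher and 9 lower of 35 tested, with a median of 0.32 that turned to -0.11 on unscaled library sizes. The targets Id1 and Id3, inhibitors of helix-loop-helix factors, had 193, 405 and 342 against 25.03, 23.2, 34.02 and 27.3 CPM (log2 3.51 ± 0.24) and 895, 997 and 1118 against 112, 139.6, 194 and 135 CPM (log2 2.79 ± 0.20), both without overlap. The receptor genes Bmpr1a and Bmpr2 and the transducer Smad5 fell by 1.02, 0.71 and 1.12 on the log2 scale. The ligand gene Bmp4 fell as well, from 69.1, 97.5, 75.7 and 67.4 CPM to 9.77, 30.2 and 11.7 CPM (log2 -2.21 ± 0.31, and -2.83 without sort replicate 2). These targets stood higher in the sort while these receptors and this ligand stood lower.

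Growth factor genes rose in 17 and fell in 13 of 40 tested, with a median of 0.06 that turned to -0.38 on unscaled library sizes. Ligands of the EGF receptor were among the risen members: Hbegf had 403, 551 and 554 CPM in the sort and 7.84, 4.73, 19.1 and 17.5 CPM in keratinocytes (log2 5.31 ± 0.32, adjusted p = 5.89e-09), and Areg, amphiregulin, 24.3, 58.4 and 66.5 against 2.62, 2.37, 0.318 and 1.46 CPM (log2 4.90 ± 0.45). Igf1, a fibroblast product, had 62.1, 72.1 and 89.1 against 5.603, 5.21, 7.31 and 8.74 CPM (log2 3.44 ± 0.23). The groups did not overlap for Hbegf, Areg or Igf1. The receptor genes Fgfr2 and Igf1r fell by 1.19 and 1.21 on the log2 scale and the PDGF ligand gene Pdgfa by 1.02, while the receptor genes Pdgfra and Pdgfrb were higher and Igfbp3 and Il34 were not called. In the Hedgehog, Notch and Hippo list 5 rose and 10 fell of 24 tested, and 1 rose and 12 fell on unscaled library sizes. The median of -0.39 turned to 0.13 without the count filter (39 tested). Yap1, the Hippo effector, had 83.6, 77.9 and 103 against 219, 261, 263 and 266 CPM (log2 -1.52 ± 0.17), and its target Ccn1 went the other way with 439, 682 and 318 against 41.8, 40.2, 41.3 and 32.8 CPM (log2 3.62 ± 0.23). Gas1, a Hedgehog co-receptor gene, fell by 1.5 on the log2 scale. Hes1, a Notch target, had 326, 574 and 1178 against 265, 312, 305 and 382 CPM with overlap (log2 1.13 ± 0.30, and 0.53 without sort replicate 3). It was not called on unscaled library sizes.

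Chemokine, cytokine and complement genes rose in 22 and fell in 7 of 32 tested (53 listed), with a median of 2.88. Ccl20, a chemokine of stimulated keratinocytes that attracts CCR6+ cells, had 1199, 363 and 1628 CPM in the sort and 7.098, 4.26, 6.04 and 2.55 CPM in keratinocytes (log2 7.71 ± 0.47, adjusted p = 6.01e-09). Cxcl1, a neutrophil attractant, had 156, 86.97 and 272 against 1.12, 0, 0.636 and 0 CPM (log2 8.40 ± 0.52, and 9.17 without keratinocyte replicate 1), Ccl2 109, 63.4 and 156 against 2.24, 1.42, 5.09 and 4.73 CPM (log2 4.94 ± 0.35) and Cxcl16 713, 409 and 452 against 80.3, 68.6, 74.1 and 53.5 CPM (log2 2.92 ± 0.21). Every sort library was above every keratinocyte library for these 4 genes. Il6 had 44.1, 19.1 and 67.6 CPM in the sort and 3 counts in keratinocytes, a ratio of 157 (95% exact counting interval 53.3 to 764), and Il1rn, which blocks the interleukin 1 receptor, rose by 1.73 ± 0.21. Steady-state chemokines of the epidermis were lower: Ccl27a, which attracts skin-homing T cells, had 549, 542 and 574 against 2970, 2608, 3728 and 3277 CPM (log2 -2.50 ± 0.20, adjusted p = 8.18e-08), and Cxcl14 137, 259.7 and 145 against 501, 536, 641 and 699 CPM (log2 -1.72 ± 0.23). The scavenger receptor gene Ackr4 fell by 2.65 on the log2 scale. Il33, an alarmin, was called at 0.41 ± 0.15 but was -0.02 on unscaled library sizes and not called there.

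Histocompatibility and interferon genes fell in 12 and rose in 8 of 24 tested, with a median of -0.78. Without the count filter the list had no such direction, with 12 higher and 11 lower of 37 tested and a median of 0.04. The class I genes H2-K1 (215, 330.1 and 293 against 1155, 1350, 1283 and 1325 CPM, log2 -2.20 ± 0.19) and H2-D1 (log2 -1.06 ± 0.18) and their light chain gene B2m (-1.39 ± 0.26) were lower without overlap. Nlrc5, which switches on class I genes, had 7.38, 9.53 and 10.2 against 97.1, 73.8, 53.4 and 109.6 CPM (log2 -3.23 ± 0.27), and Psmb8, an immunoproteasome subunit gene, 19.3, 23.2 and 32.1 against 115, 127, 127 and 96.5 CPM (log2 -2.24 ± 0.21). The interferon-stimulated gene Usp18 was lower likewise (2.61, 4.14 and 4.301 against 29.9, 28.4, 39.1 and 28.04 CPM, log2 -3.14 ± 0.29). The class Ib genes H2-Q7 (log2 -4.39 ± 0.41, -3.74 and -5.01 without sort replicates 1 and 3) and H2-Q4 (-4.03 ± 0.35) fell too, and reads shared between these near copies make their separate levels uncertain. Among the risen members Cd74, the class II invariant chain gene, had the largest difference (log2 3.12, and 2.82 to 3.39 with 1 library left out). Cd74 is also a member of the leukocyte list. Ifitm2 rose by 1.16 ± 0.20, and Ifitm3, called at 0.55 ± 0.19, lost the call in 4 of the 7 comparisons with 1 library left out.

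Cell cycle genes were largely not called, 26 of 37 tested, with 7 lower and 4 higher. The lower count was 16 on unscaled library sizes, 13 without sort replicate 2 and 4 without sort replicate 1. Mki67, the Ki-67 gene of dividing cells, had 28.2, 35.6 and 26.2 CPM in the sort and 84.4, 67.2, 86.8 and 111 CPM in keratinocytes, without overlap (log2 -1.55 ± 0.20, adjusted p = 1.72e-05), and Top2a fell by 0.94 on the log2 scale. Cdkn1a, the p21 inhibitor gene that a cell raises when it leaves the cycle or is stressed, had 3656, 2408 and 5177 against 606, 823, 570.4 and 555 CPM (log2 2.55 ± 0.24, adjusted p = 6.84e-07). Ccnd2 rose by 0.88 ± 0.18, and Pcna was not called (log2 0.40 ± 0.17).

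Immediate early and dissociation-response genes rose in 31 of 34 tested (35 listed) and fell in 0, with a median log2 difference of 3.51. Jun had 2020, 3412 and 1957 CPM in the sort and 177, 145, 125 and 109.6 CPM in keratinocytes (log2 4.14 ± 0.24, adjusted p = 4.20e-09). Fos had 824, 2008 and 826 against 113, 79.03, 66.1 and 63.4 CPM (log2 3.92 ± 0.31) and Atf3 711, 1933 and 1072 against 20.2, 17.98, 12.1 and 17.1 CPM (log2 6.20 ± 0.32). Each of these AP-1 family genes was higher in every sort library. Btg2 had 2399, 2722 and 1936 against 60.9, 66.2, 63.3 and 57.5 CPM (log2 5.25 ± 0.20), Dusp1 1624, 1959 and 1406 against 149, 87.1, 102 and 189.7 CPM (log2 3.65 ± 0.25) and Zfp36, which destabilises cytokine mRNA, 1139, 1527 and 1075 against 49.7, 43.1, 36.9 and 45.2 CPM (log2 4.83 ± 0.20). Btg2 and Dusp1 are the 2 list members with a CRE in their printed promoters. Nr4a1 and Egr1 rose by 5.49 ± 0.26 and 3.47 ± 0.22, and Klf4 was among those not called. The summed level of the list was 15900 to 25100 CPM of library totals in the sort and 3850 to 4230 in keratinocytes, against 27300 to 31200 in muscle, 24700 to 28000 in lymph node and 10200 to 13700 in thymic fibroblasts. Many of these genes are known to respond to tissue digestion. Being higher in the same sort libraries as the cytokine, protease and Sprr genes above follows from the contrast itself and shows no link between them. The order of the 3 sort libraries varied by gene. Replicate 2 was the highest for Jun, Fos, Atf3 and the protease gene Mmp2, and the lowest for Ccl20, Cxcl1, Mmp13 and Sprr1a. These orders cover a few genes in 3 libraries and carry no test. The part of the immediate early genes in the cytokine, protease and Sprr differences was not tested.

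Beyond the lists, Slurp2, a secreted protein gene of keratinocytes (chr 15, 74742764 to 74746693), had 319.7, 121 and 430.5 CPM in the sort and 0 counts in all keratinocyte libraries, at least 1030-fold higher. Myoc, myocilin, was at least 174-fold higher (42.6, 37.7 and 66.1 CPM against 0 counts) and Tlx1, a homeobox gene, at least 78.0-fold (15.4, 33.1 and 17.2 CPM against 0 counts). Cytl1 had 121, 156 and 229 CPM in the sort and 2 counts in keratinocytes (ratio 849, 95% exact counting interval 235 to 7020), and Chad, chondroadherin, 32.6, 43.1 and 49.6 CPM against 1 count (ratio 425, 75.8 to 16800). By absolute difference Actb, beta-actin, led with 33880, 21850 and 27640 CPM in the sort and 6927, 4576, 4008 and 4806 CPM in keratinocytes (log2 2.45 ± 0.25, adjusted p = 1.37e-06). Serpinb2, a serpin of stressed keratinocytes, had 13980, 7243 and 11150 against 382, 438, 472 and 433 CPM (log2 4.65 ± 0.25), Ly6d rose by 2.48 ± 0.23 and the metallothionein Mt1 by 2.60 ± 0.25. None of these overlapped.

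On the lower side H19, an imprinted non-coding RNA, had 1.303, 0.828 and 1.17 CPM in the sort and 68.4, 55.8, 63.3 and 103 CPM in keratinocytes (log2 -5.94 ± 0.34, adjusted p = 3.65e-09). Sox21, a hair and epidermal factor gene, had 3.91, 7.87 and 3.91 against 88.9, 74.8, 102 and 71.7 CPM (log2 -4.06 ± 0.27), Kcnj2, a potassium channel gene, 1.96, 2.48 and 3.13 against 51.2, 55.8, 50.2 and 47.7 CPM (log2 -4.37 ± 0.26) and Hpgds, a prostaglandin D synthase gene, 3.69, 14.1 and 14.9 against 175, 150.5, 122 and 226 CPM (log2 -4.04 ± 0.37). All lay lower in every sort library. Gdnf, a neurotrophic factor gene, had 0.869, 4.55 and 0.782 against 26.1, 33.1, 34.7 and 34.2 CPM (log2 -4.09 ± 0.42, and -5.16 without sort replicate 2). Malat1 fell from 14240, 12430, 13860 and 15490 to 3950, 4145 and 6173 CPM (log2 -1.56 ± 0.23), alongside a long non-coding share of counts of 1.33% to 1.60% in the sort and 3.56% to 3.95% in keratinocytes.

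Markers of other skin cells were higher in the sort for most types. Summed marker levels, in CPM of library totals for sort and keratinocytes, were 201 to 475 against 117 to 148 for 11 pericyte and smooth muscle genes, 177 to 696 against 89.7 to 117 for 11 Schwann cell and nerve genes, and 68.3 to 249 against 17.5 to 32.1 for 11 adipocyte genes. They were 56.9 to 145 against 9.75 to 19.3 for 17 leukocyte genes, 22.9 to 115 against 7.82 to 28.0 for 13 endothelial genes (Kdr, Esam and Cldn5 at 0 in keratinocytes) and 44.3 to 1070 against 4.70 to 130.0 for 8 erythroid genes. Melanocyte genes summed to 32.2 to 36.8 against 55.3 to 71.9, skeletal muscle genes to 22.9 to 62.5 against 19.7 to 27.6, and Merkel and sweat gland genes to 5.07 to 11.9 against 11 to 24. Of the tested markers 4 of 7 pericyte, 4 of 7 Schwann, 4 of 4 adipocyte, 3 of 3 leukocyte, 4 of 4 erythroid, 2 of 3 muscle and 1 of 1 endothelial genes rose, 1 pericyte and 2 of 2 melanocyte genes fell, and neither of the Merkel and sweat gland genes was called. The melanocyte gene Mitf lost its call in 4 of the 7 comparisons with 1 library left out, with RLE scaling and in DESeq2. In old skin 0 of 2 melanocyte genes were called. Myod1 and Pax7 of muscle, Cd79a of B cells and Cidec and Lep of adipocytes were at 0 in both groups, and Cdh19 of Schwann cells was at 0 in keratinocytes. Their part in the differences above was not tested.

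Single markers show how uneven these were. Rgs5, a pericyte gene, had 152, 361 and 252 CPM in the sort and 0.747, 0.473, 0.954 and 1.46 CPM in keratinocytes (log2 8.02 ± 0.37, adjusted p = 4.36e-10), higher in every sort library. This gene made up a large part of the summed pericyte and smooth muscle level in the sort. Of the other tested members, Mylk rose by 2.06 on the log2 scale, Cspg4 fell by 0.93, and Acta2 and Notch3 were not called. Tagln, called at 0.86, lost the call in 5 of the 7 comparisons with 1 library left out. The adipocyte gene Fabp4 had 24.5, 25.7 and 235 against 0.374, 0.946, 0.636 and 16.4 CPM (log2 4.32 ± 0.89, 2.44 without sort replicate 3 and 7.10 without keratinocyte replicate 4). For Fabp4 sort replicate 3 stood far above the other sort libraries. Pecam1, an endothelial adhesion gene, had 4.56, 6.21 and 20.7 against 2.99, 3.31, 1.59 and 3.64 CPM and lost the call without sort replicate 3 (log2 1.83 ± 0.53 with it, 0.91 and adjusted p = 0.136 without). The haemoglobin gene Hbb-bs had 33.5, 729 and 413 against 0.374, 0.946, 20.7 and 63.00 CPM, with overlap (log2 4.16 ± 0.93, 3.37 without sort replicate 2 and 5.58 without keratinocyte replicate 4).

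The sort was set against young fibroblasts of muscle, lymph node and thymus to show which of its genes set it apart from them. This comparison uses the same 3 sort libraries, so its values stand beside those above and do not support them. Of 14710 genes tested 9321 (63.4%) were called, 4374 higher (29.7%) and 4947 lower (33.6%) than the mean of the other 3 groups. Basal keratinocyte genes rose in 14 and fell in 1 of 15, suprabasal genes rose in 26 of 26, junction genes in 28 of 31 and late cornified envelope and small proline-rich genes in 17 of 17. Fibroblast identity genes fell in 19 of 20, mesenchymal transcription factors in 37 of 41 and genes for fibrillar collagens in 29 of 35. Krt14 had 9015, 10230 and 5785 CPM in the sort against at most 0.415 CPM in the muscle libraries, 775.9 to 1022 CPM in lymph node libraries and 24.2 to 39.5 CPM in thymic libraries (log2 9.07 ± 0.26, adjusted p = 6.32e-17). Krt2 was at 0 in muscle and thymic libraries and at 498.8 to 797.6 CPM in lymph node libraries, against 6990 to 10860 CPM in the sort. Lypd3, an epithelial surface protein gene, had a mean of 1687 CPM in the sort, 0.0692 in muscle, 107 in lymph node and 0.0855 in thymic libraries (log2 10.38 ± 0.26).

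Dcn showed the reverse, with 1069 to 1123 CPM in the sort and 11350 to 25430 CPM in the other 10 libraries (log2 -4.07 ± 0.28, adjusted p = 8.35e-11). Col6a5 was at 0 in the sort and had a mean of 375 CPM in thymic, 5.36 in muscle and 4.11 in lymph node libraries. Immediate early genes did not separate the sort from these groups in 1 direction, 14 higher and 8 lower of 35, and Jun was not called (1863 to 3269 CPM against 1901 to 4373 CPM, log2 -0.21 ± 0.21). Lymph node libraries carried keratin RNA themselves, and without them, an alternative chosen after the values were seen, 9019 genes were called.

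The same contrast in skin of old mice, aged 22 to 24 months and otherwise labelled as the young, used 3 sort and 3 keratinocyte libraries that the young comparison did not. Of 11953 genes tested 6363 (53.2%) were called, 3257 higher (27.2%) and 3106 lower (26.0%). Of the 6509 young calls 6153 were tested in old skin and 6033 (98.0%) had the same sign, while 4961 were called with the same sign, 76.2% of the young calls and 78.0% of the old calls. Another 6 genes were called in opposite directions. Of the 229 named genes called in young skin 207 of the 224 tested were called in old skin with the same sign.

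Krt14 again was not called, with 7651, 11080 and 8824 CPM in the old sort and 11850, 8582 and 9564 CPM in old keratinocytes (log2 -0.12 ± 0.16, adjusted p = 0.54). Krt2 had 11740, 10490 and 8564 against 4.05, 4.88 and 12.04 CPM (log2 10.53 ± 0.37), and Dcn 1187, 973 and 924 against 3.12, 2.13 and 3.01 CPM (log2 8.53 ± 0.21). Krt77 was lower as in young skin (252, 84.02 and 138 against 914, 1204 and 857 CPM, log2 -2.65 ± 0.33). Late cornified envelope and small proline-rich genes rose in 11 of 11 tested, fibroblast identity genes in 17 of 18 and immediate early genes in 30 of 34, with Jun at 1674, 2013 and 2314 against 207, 105 and 212 CPM. The identity gene not called by edgeR's quasi-likelihood test was Thy1 (76.94, 102.1 and 89.5 against 86.97, 70.15 and 80.96 CPM, log2 0.17 ± 0.15, adjusted p = 0.365). Lor, higher in young skin, was not called in old skin either (log2 0.67 ± 0.51, adjusted p = 0.29). Hox genes fell in 13 of 14 tested with 1 higher, and Hoxa5 was at 0 in all 3 old sort libraries and at 43.95, 36.9 and 40.8 CPM in old keratinocytes. Wnt genes fell in 23 and rose in 5 of 40. Cell cycle genes fell in 22 and rose in 2 of 39.

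Whether the contrast differed with age was tested as an interaction over all 13 skin libraries. Of 13262 genes 0 (0%) passed in edgeR, with 916 at an unadjusted p under 0.05, and DESeq2 called 1. Hes1, named above, was higher in the young sort and lower in the old sort (370.1, 301 and 304 against 386, 460.2 and 443 CPM, log2 -0.40 ± 0.13, adjusted p = 0.0242), and its interaction did not pass (adjusted p = 0.529). Slurp2, at 0 in young keratinocytes, had 25.9, 10.98 and 14.1 CPM in old keratinocytes and 402, 376 and 308 CPM in the old sort, and its interaction did not pass either (adjusted p = 0.0974).

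**Figure D5:**
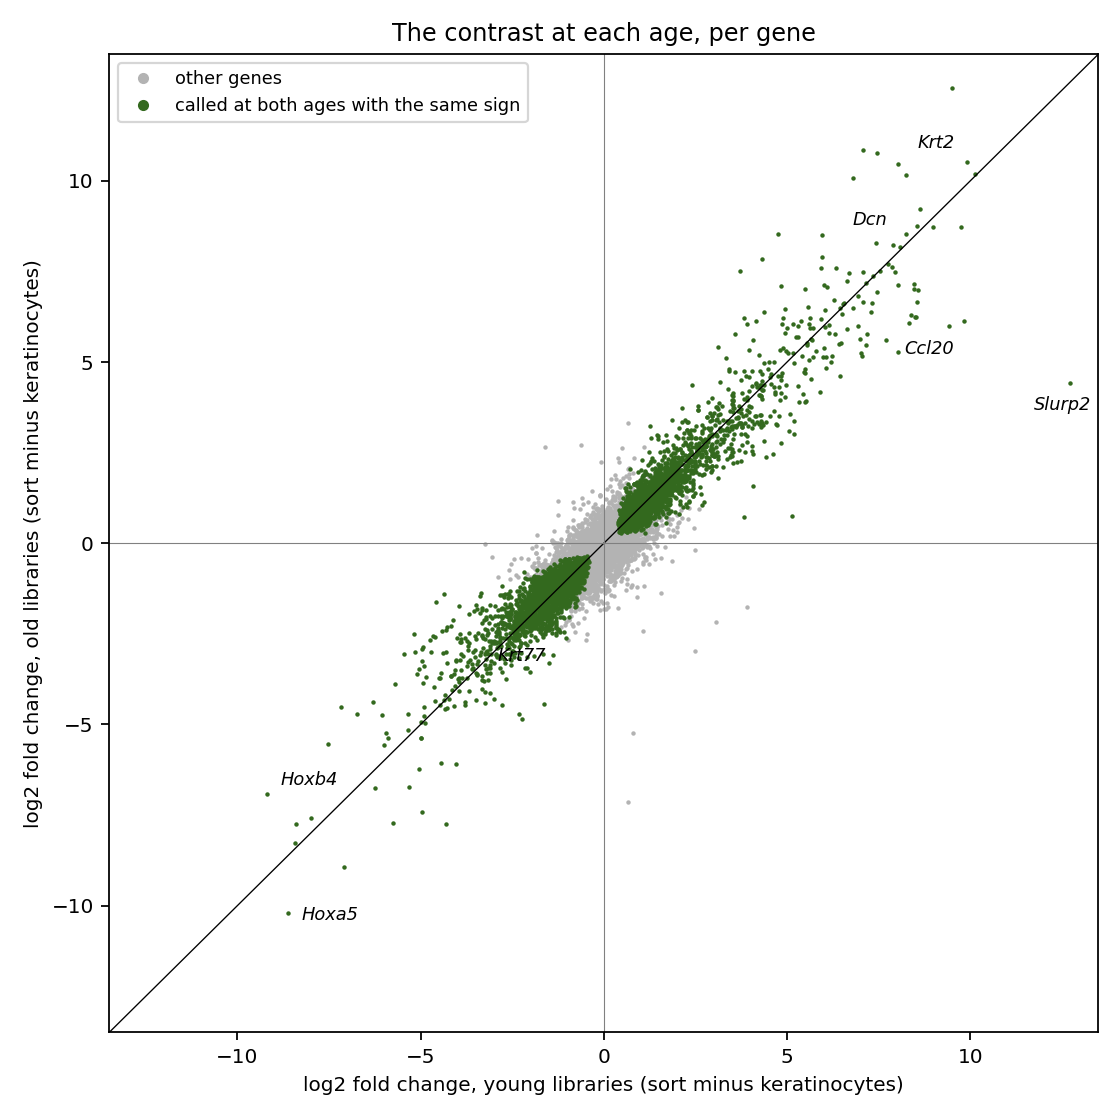
Log2 difference of sort minus keratinocytes in old libraries (vertical axis) against young libraries (horizontal axis) for the 11584 genes tested at both ages, with genes called at both ages with the same sign in green and the diagonal as a line. Most genes lie along the diagonal, and Slurp2 lies furthest below it among the labelled genes.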

How the data were processed

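Gene-level read counts, not normalized, were deposited by the authors as 1 table of 55484 entries in 170 libraries. Per the labels' protocols, each read pair held a sample index (8 bp) and a molecular identifier (10 bp), and reads were assigned to samples with sabre (80faf94). Alignment and counting tools in the submitters' processing notes are STAR and featureCounts 2.0.1, with GRCm38.p6 (mm10) as build. Whether identifiers were collapsed and whether counting used strand are not given in the sources used here, and 84 of the 265 genes considered for naming overlap another gene model. If duplicates were kept, intervals and floors cover counting error only.

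Groups were taken from the labels. Counts were tested with edgeR 4.0.16 in R 4.3.3: a count filter (filterByExpr, minimum 10 and total 15), TMM scaling, the quasi-likelihood test, Benjamini-Hochberg adjustment over all tested genes and a threshold of 0.05. The young fit used the 7 young skin libraries, the old fit 6, the age interaction 13 and the comparison with other fibroblasts 13 libraries. CPM values are TMM-scaled within each fit, except sums over lists and ranks among cell types, which use library totals. In total 26 entries with date-like names were left out of tests. The main edgeR fit of each comparison was run on simulated counts, while the other procedures were not. The members and gene lists were chosen with earlier results of these data known. Named genes were 15 per direction by log2 difference among called genes with at least 20 CPM and no overlap, 8 per direction by CPM difference, and up to 6 members per list with the highest CPM, called or not. That gave 222 genes, to which 6 markers and 37 genes chosen after their values were seen were added, and the text names part of them. DESeq2 1.42.0, other scalings, no filter, a 2-fold threshold, a replicate block and leaving out each library were tried as alternatives. Results of 4 of these genes are not reported here.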

Additional observations from a re-analysis of the deposited data

Results flagged for a closer look

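Among the 4 young keratinocyte libraries 26 of 265 genes had 1 library set apart from the other 3 by Dixon's gap-to-range ratio at the 95% level, where chance flags about 1 in 20. For Apod, Bglap3, Chad, Cytl1, Lce1c, Lyz2, Mmp10 and Mmp13 the other 3 libraries were at 0, so that any count above 0 gives a ratio of 1 and the chance rate does not apply to them. The library set apart was replicate 1 for 5 genes, 2 for 5, 3 for 10 and 4 for 6. Groups of 3 libraries were not tested in this way. All values are CPM.

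Keratinocyte replicate 1 had Apod at 0.374 (0 in the others), Col7a1 at 209 (149.8 to 154 in the others) and Pdgfa at 114 (106.8 to 107.4 in the others). It also had Trp63 at 938 (776 to 796 in the others) and Yap1 at 219 (261 to 266 in the others).

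Keratinocyte replicate 2 had Calm4 at 756 (509.5 to 539.8 in the others), Chad at 0.473 (0 in the others) and Igfbp3 at 266 (256 to 257 in the others). It also had Il34 at 153 (92.2 to 102 in the others) and Scn7a at 0 (0.636 to 0.747 in the others).

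Keratinocyte replicate 3 had Anxa7 at 219 (242 to 245 in the others), Bglap3 at 0.318 (0 in the others) and Hoxb5 at 6.995 (9.83 to 10.4 in the others). It also had Junb at 134 (124 to 125 in the others), Lor at 12.1 (3.31 to 3.64 in the others) and Lyz2 at 0.954 (0 in the others). Further values were Mmp10 at 0.318 (0 in the others), Rspo3 at 96.98 (70.7 to 74.3 in the others) and Sostdc1 at 521 (291 to 318 in the others). The last was Usp18 at 39.1 (28.04 to 29.9 in the others).

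Keratinocyte replicate 4 had Cytl1 at 0.728 (0 in the others), Fabp4 at 16.4 (0.374 to 0.946 in the others) and Krt7 at 7.28 (3.74 to 3.81 in the others). It also had Lce1c at 1.09 (0 in the others), Mmp13 at 2.19 (0 in the others) and Pmp22 at 30.6 (16.5 to 17.2 in the others).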

How the results depend on the processing

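The young comparison called 6509 genes. It called 6520 with RLE scaling, 6967 on unscaled library sizes, 7595 without a count filter, 6243 in DESeq2, 7202 with the spread of 13 libraries and 5788 to 6605 with 1 library left out. Against a 2-fold threshold 2056 genes passed, 954 higher and 1102 lower. Old calls ranged from 5618 to 6139 and calls against other fibroblasts from 8083 to 9589 with 1 library left out. On unscaled library sizes 30.0% of old calls were higher, with the median shifted by -0.35, and 37.8% of calls against other fibroblasts, shifted by -0.23. Without lymph node fibroblasts, an alternative chosen after seeing the data, 50.5% of 9019 calls were higher against 46.9% with them. The interaction called 0 genes, 115 without a filter, 1 in DESeq2, 4 with the replicate block and 0 to 2 with 1 library left out (2 without young sort replicate 2). The replicate block gave 6056 young, 6292 old and 9067 other-fibroblast calls. Same-numbered young libraries correlated at 0.0831, -0.0173 and 0.0981 in their deviations from group means, and old ones at -0.0434, 0.0677 and -0.0162. Libraries with different numbers ran from -0.106 to 0.0341 in young and from -0.0999 to 0.113 in old skin. The 0.0831 and 0.0981 thus lay above every different-numbered young value. No same-numbered value reached 0.1, the minimum set for pairing, so the numbers were not taken as pairs. Whether young pools were paired is not settled by these values. Sign changes were checked only for the 265 genes considered for naming and are given where either value was called. On unscaled library sizes 3 changed sign in the young comparison: Il33 (-0.0182), Igfbp3 (-0.41) and Anxa4 (-0.006). Without lymph node fibroblasts 3 changed sign against other fibroblasts: Il33 (-0.27), S100b (0.91) and Col8a1 (1.31). The cause was not tested. Of the 229 named genes called in young skin 214 kept the call with each library left out and 15 lost it at least once. Depth of 1917368 counts in the shallowest library leaves genes at a few counts with wide intervals.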
